A study of Mus musculus with 21 samples.

Results

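The mitochondrial genome transcripts are the 37 genes whose symbols begin with mt-, out of 54532 gene symbols listed in each of 2 expression tables of mouse primary brain microglia. They fall into 13 protein-coding genes, 2 ribosomal RNA genes and 22 transfer RNA genes, and all 37 are listed in both tables. RNA sequencing was deposited for 21 libraries, 3 per group. The 5XFAD table held adult 5XFAD mice that were heterozygous for a Trem1 deletion (5XFAD Trem1+/-), adult 5XFAD mice and adult wild-type mice. 5XFAD mice are a transgenic model of Alzheimer disease whose transgenes are driven by the Thy1 promoter, which is active mainly in neurons, and they develop amyloid plaques. The aging table held aged Trem1-/-, aged wild-type, young Trem1-/- and young wild-type mice, with age given as a word and not in months. Whether replicates are separate mice is not given in the labels. The p-values therefore measure only the spread between these libraries, which may be technical.

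The mitochondrial genome is a small circle inherited apart from the nuclear chromosomes. It encodes core subunits of the respiratory chain, the RNAs of the mitochondrial ribosome and a set of transfer RNAs. Both strands are copied as long precursors, which are cut mostly at the transfer RNAs to release the other RNAs, so that the 2 ribosomal RNAs and most mRNAs share a precursor. The factor MTERF1 binds a site just behind the ribosomal RNA genes, within the gene of a leucine transfer RNA, and can stop transcription there. The levels that are measured depend on both synthesis and decay.

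Some mt- genes have near-identical copies in nuclear DNA, and this bears on how their rows can be read. In the GENCODE M21 annotation (GRCm38), 7 pseudogenes on the minus strand of chromosome 1, between 24611535 and 24616197, match the mitochondrial genome from position 6390 to 11042. They lie over all or part of mt-Co1, mt-Co2, mt-Atp8, mt-Atp6, mt-Co3, mt-Nd3, mt-Nd4l and mt-Nd4, each at 99% identity or more, although mt-Atp8 has an annotated match only over the 43 bases that it shares with mt-Atp6. A read from an identical stretch fits both places. The following stretches, 60 bases each, show the range, with capitals marking bases of the copy that differ from the mitochondrial gene. The mt-Atp6 stretch is the same in its copy Gm10925, the mt-Nd3 stretch differs at 1 base from its copy Gm28438, and the mt-Cytb stretch differs at 5 bases from Gm11410, a more distant copy on chromosome 4.
mt-Atp6 bases 121 to 180: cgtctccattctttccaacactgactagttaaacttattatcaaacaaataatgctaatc
Gm10925: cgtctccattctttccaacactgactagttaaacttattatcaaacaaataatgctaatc
mt-Nd3 bases 1 to 60: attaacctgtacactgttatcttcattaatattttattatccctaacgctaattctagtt
Gm28438: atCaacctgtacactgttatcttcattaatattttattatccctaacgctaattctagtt
mt-Cytb bases 121 to 180: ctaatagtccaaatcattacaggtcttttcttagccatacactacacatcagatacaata
Gm11410: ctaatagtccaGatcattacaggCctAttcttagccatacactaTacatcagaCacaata

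The transfer RNA genes mark where the precursors are cut. mt-Tl1, a leucine transfer RNA, lies at positions 2676 to 2750, directly between mt-Rnr2 and mt-Nd1. Whether transcription stopped within this gene was not tested. mt-Tp, the proline transfer RNA, lies on the minus strand at positions 15356 to 15422 and had enough reads for a test in both tables. Both are shown whole, with the anticodon of mt-Tp in capitals.
mt-Tl1: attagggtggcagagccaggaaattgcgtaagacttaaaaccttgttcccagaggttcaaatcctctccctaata
mt-Tp: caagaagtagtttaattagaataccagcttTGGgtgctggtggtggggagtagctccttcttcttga

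Depth ran from 9264999 to 18698707 reads on genes per library in the 5XFAD table, and from 8600878 to 19411434 in the aging table. All values below are normalized counts, the reads per gene divided by a size factor of the library, unless a sentence says otherwise. All 10 microglia markers of the list used here had reads, and their summed level was 400631 to 450403 in 5XFAD Trem1+/-, 338062 to 379931 in 5XFAD and 415576 to 462305 in adult wild type. Trem1 averaged 27.2 ± 10.2 in 5XFAD Trem1+/-, 27.5 ± 12.2 in 5XFAD and 31.0 ± 31.4 in adult wild type (SD, n = 3 each). It averaged 164 ± 68.9 in the libraries labelled aged Trem1-/- and 231 ± 40.8 in aged wild type. Libraries with the label young Trem1-/- averaged 92.9 ± 5.95, against 13.9 ± 9.83 in young wild type. The young libraries labelled Trem1-/- thus held more Trem1 reads than young wild type, against their label, and every direction between genotypes below rests on the labels alone.

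The mt- rows spanned a wide range of levels. Per kilobase of transcript, mt-Co1, mt-Cytb and mt-Nd5 were the highest mRNAs in both tables, with means of 18390, 18544 and 14922 normalized counts per kb in the 5XFAD table and 13386, 11726 and 10424 in the aging table. mt-Co1 encodes the catalytic subunit of cytochrome c oxidase, mt-Cytb the only mitochondrially encoded subunit of complex III, and mt-Nd5 a subunit of complex I. In contrast, mt-Co2, mt-Atp8, mt-Atp6, mt-Co3 and mt-Nd4l, which encode 2 further subunits of cytochrome c oxidase, both subunits of ATP synthase encoded here and a subunit of complex I, had means between 55.5 and 146 normalized counts per kb in the 5XFAD table. The same 5 genes had means between 38.4 and 91.6 per kb in the aging table. mt-Nd3, a small complex I subunit, stood between these groups at 951 and 688 per kb in the 5XFAD and the aging table.

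Apart from mt-Atp8, the low rows were those that share nearly all of their sequence with an annotated nuclear copy. Of all 50-base windows in mt-Co2, 100% also occurred in an annotated nuclear transcript, against 99.9% in mt-Co3, 99.5% in mt-Atp6, 98.8% in mt-Nd4l and 98.0% in mt-Nd3. This share was 62.2% in mt-Nd4 and 51.1% in mt-Co1, 8.19% in mt-Nd2, 7.61% in mt-Nd5, and 0% in mt-Atp8, mt-Nd1, mt-Nd6 and mt-Cytb. The near-identical annotated match of mt-Atp8 has 43 bases, fewer than a window, so its 0% does not show that it lacks a copy. mt-Atp8 lies within the stretch of the mitochondrial genome that the chromosome 1 copies span. The pseudogene rows had reads too: Gm10925, the copy of mt-Atp6, had 68.9 to 95.6 normalized counts in 5XFAD Trem1+/-, 30.5 to 105 in 5XFAD and 39.6 to 70.3 in adult wild type. mt-Atp6 itself had 89.0 to 102 in 5XFAD Trem1+/-, 53.8 to 123 in 5XFAD and 52.8 to 64.8 in adult wild type. How reads with several matches were counted is not given in the sources used here, and whether it sets these low levels was not tested. The values of the 8 genes under a copy are therefore uncertain, and the 5 without one (mt-Nd1, mt-Nd2, mt-Nd5, mt-Nd6 and mt-Cytb) carry most of what follows.

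**Figure D1:**
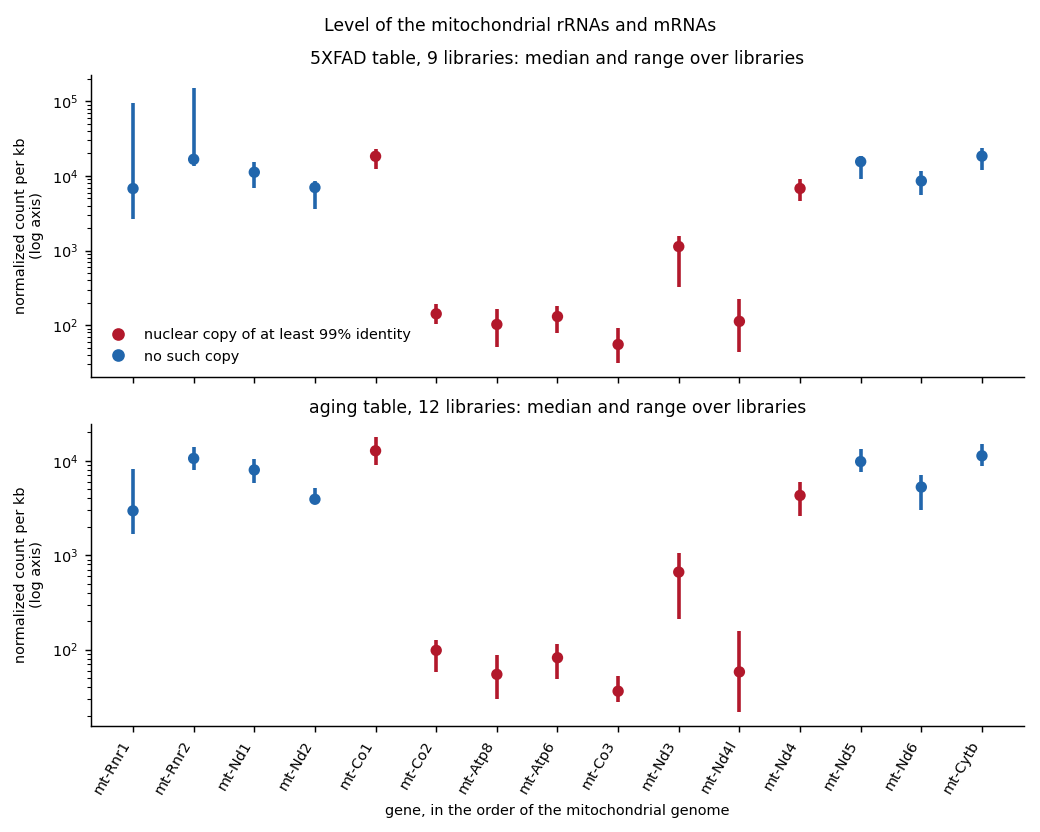
Level per kilobase of the mitochondrial rRNAs and mRNAs in genome order, in normalized counts per kb on a log axis; points are medians and lines the range over the 9 libraries of the 5XFAD table (top) and the 12 of the aging table (bottom). The 8 genes with a nuclear copy of at least 99% identity are in red; mt-Co2, mt-Atp8, mt-Atp6, mt-Co3 and mt-Nd4l lie lowest in both tables.

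The first question was whether mitochondrial transcripts differ between 5XFAD and wild-type microglia. Both ribosomal RNAs were lower in both 5XFAD groups than in adult wild type, and some of the mRNAs were modestly higher. With limma on log2(normalized count + 1) and an adjusted p under 0.05, 6 of 19 mt- genes tested passed in 5XFAD Trem1+/- against adult wild type, and 4 of 19 in 5XFAD against adult wild type. Over all 17025 genes tested in this table, 2.78% and 1.98% passed in these comparisons, and 0.74% and 0.364% passed and were lower, as both ribosomal RNAs were. The 2 comparisons share their wild-type libraries, so their likeness is not independent.

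mt-Rnr1 is the RNA of the small subunit of the mitochondrial ribosome and lies at positions 70 to 1024 of the plus strand. It had 4595, 3883 and 6476 normalized counts in the 5XFAD Trem1+/- libraries, 2615, 10530 and 2526 in the 5XFAD libraries, and 82302, 90752 and 74847 in the adult wild-type libraries. Every adult wild-type library was above every 5XFAD library, and the second 5XFAD library was the highest of its group. The log2 difference was -4.08 ± 0.57 in 5XFAD Trem1+/- against adult wild type (SE, adjusted p = 0.022) and -4.32 ± 0.57 in 5XFAD against adult wild type (adjusted p = 0.023). Leaving out the second 5XFAD library gave -5.00 ± 0.18 for 5XFAD (limma adjusted p = 6.4e-08), and leaving out any other library of this comparison ended the call, with adjusted p up to 0.096. Leaving out any 1 library of the other comparison also ended its call, with adjusted p between 0.056 and 0.097. edgeR on the recovered reads called mt-Rnr1 in 5XFAD Trem1+/- and did not in 5XFAD.

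mt-Rnr2, the RNA of the large subunit at positions 1094 to 2675, behaved likewise with less scatter. It had 28262, 26451 and 23909 normalized counts in 5XFAD Trem1+/-, 21188, 26354 and 23169 in 5XFAD, and 210672, 236748 and 205332 in adult wild type. Neither 5XFAD group overlapped adult wild type, and the 5XFAD groups overlapped each other. The log2 difference was -3.05 ± 0.10 in 5XFAD Trem1+/- (limma adjusted p = 1.5e-13) and -3.21 ± 0.10 in 5XFAD (limma adjusted p = 6.1e-14), each against adult wild type, which is 8.31-fold and 9.25-fold lower. Its call held under each of the 19 alternatives run for either comparison.

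As a share of all reads on genes, the 2 ribosomal RNAs took 0.226 ± 0.015% in 5XFAD Trem1+/-, 0.214 ± 0.052% in 5XFAD and 2.15 ± 0.16% in adult wild type (SD, n = 3 each). All mt- genes together took 1.12 ± 0.14%, 1.11 ± 0.11% and 2.74 ± 0.28% in the same order of groups. In reads, there were 0.255 ± 0.030 ribosomal RNA reads per mt- mRNA read in 5XFAD Trem1+/-, 0.242 ± 0.060 in 5XFAD and 3.68 ± 0.43 in adult wild type. Per base, mt-Rnr1 was 0.320 ± 0.112 of mt-Rnr2 in 5XFAD Trem1+/-, 0.349 ± 0.271 in 5XFAD and 0.629 ± 0.022 in adult wild type. In bulk libraries, fewer cells of a type and less RNA per cell cannot be told apart.

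Of 3 other RNA rows, chosen after their values were seen, Gm23935 and CT010467.1 were also lower in both 5XFAD groups than in adult wild type, and Rn7sk was not. Gm23935 is a 57-base gene on chromosome 16, at 11144125 to 11144181, annotated as a microRNA. It had 12312, 12484 and 17682 normalized counts in 5XFAD Trem1+/-, 10449, 30844 and 7655 in 5XFAD, and 381396, 388220 and 470518 in adult wild type. CT010467.1, an annotated ribosomal RNA gene on chromosome 17 at 39846353 to 39848827, had 1372, 1368 and 1554 in 5XFAD Trem1+/-, 1206, 4043 and 847 in 5XFAD, and 5588, 8523 and 5568 in adult wild type. Both rows were highest in adult wild type in every library, and the second 5XFAD library was again the highest of its group. Together they took 0.113 ± 0.022% of reads in 5XFAD Trem1+/-, 0.136 ± 0.107% in 5XFAD and 2.81 to 3.38% over the adult wild-type libraries. Rn7sk, the 7SK small nuclear RNA, had 45199 to 87722 in 5XFAD Trem1+/-, 41008 to 64420 in 5XFAD and 33330 to 56643 in adult wild type, and the groups overlapped. The labels give no step of RNA selection, and the part of library make-up in the ribosomal RNA difference was not tested.

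**Figure D2:**
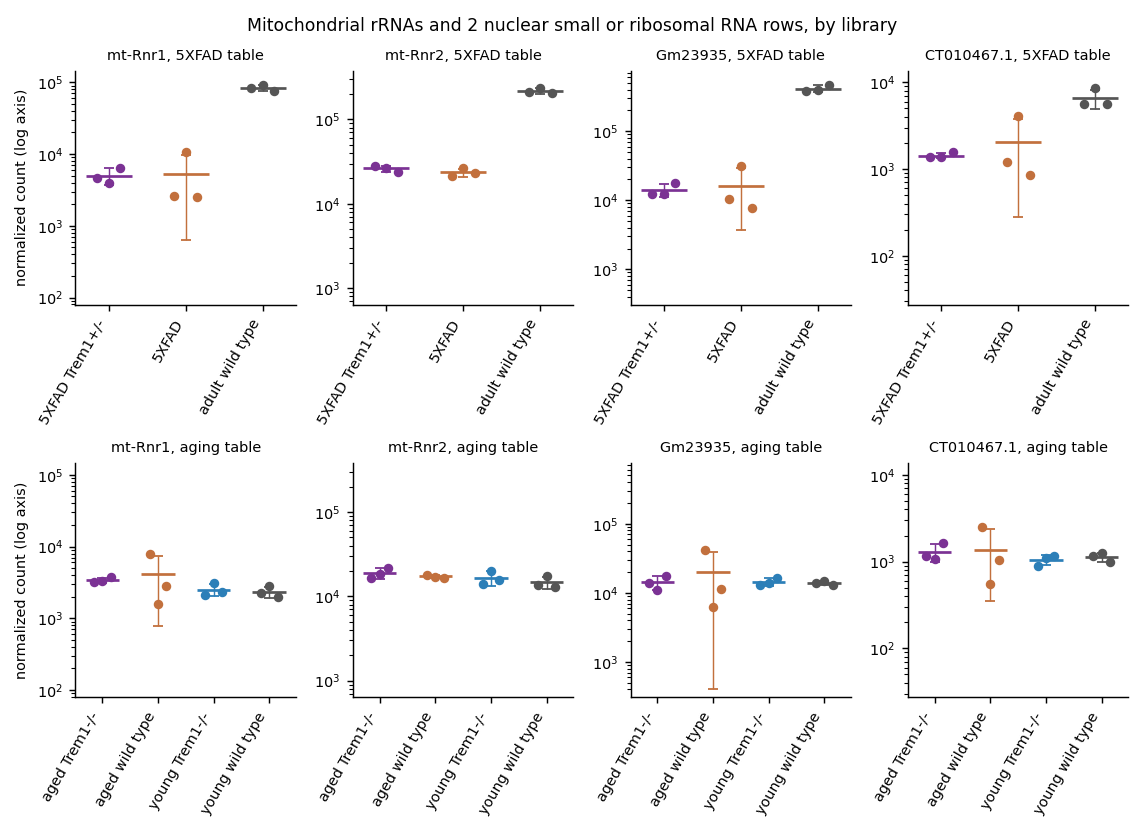
Normalized counts on a log axis of mt-Rnr1, mt-Rnr2, Gm23935 and CT010467.1 in the 5XFAD table (top) and the aging table (bottom); points are libraries, long lines group means and bars ± SD (n = 3). In the top row the 3 adult wild-type libraries lie above all 6 5XFAD libraries in each panel; in the bottom row the first aged wild-type library is the highest for mt-Rnr1, Gm23935 and CT010467.1.

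All 13 mRNAs had a log2 difference above 0 in both 5XFAD groups against adult wild type. The median was 0.63 in 5XFAD Trem1+/- and 0.56 in 5XFAD, against a median of 0.02 and 0.00 over all genes tested. Of the 13, 4 passed the test in 5XFAD Trem1+/- and 2 in 5XFAD, all higher, against 2.04% and 1.62% of all genes tested that passed and were higher. The mRNAs that passed by limma were mt-Nd1, mt-Nd2, mt-Nd5 and mt-Nd6 in 5XFAD Trem1+/-, and mt-Nd1 and mt-Nd5 in 5XFAD. They encode subunits of complex I, the NADH dehydrogenase that feeds electrons into the respiratory chain. The other complex I mRNAs, mt-Nd3, mt-Nd4l and mt-Nd4, lie under a nuclear copy and did not pass. Among the 5 mRNAs without such a copy, only mt-Cytb is not a complex I gene.

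mt-Nd1, at positions 2751 to 3707 of the plus strand directly behind mt-Tl1, had 13096, 13111 and 14809 normalized counts in 5XFAD Trem1+/-, 10732, 9728 and 12447 in 5XFAD, and 7128, 8402 and 6624 in adult wild type. The 3 groups did not overlap, with 5XFAD between the others. Its log2 difference was 0.89 ± 0.12 in 5XFAD Trem1+/- (limma adjusted p = 2.2e-04) and 0.57 ± 0.12 in 5XFAD (limma adjusted p = 0.015) against adult wild type. The call in 5XFAD was lost without adult wild type replicate 1, without adult wild type replicate 3 or without 5XFAD replicate 3, with adjusted p up to 0.056. The call in 5XFAD Trem1+/- held with each library left out, but it was lost with limma without trend and robust (adjusted p = 0.12). The call in 5XFAD was lost under that setting too.

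mt-Nd2, at positions 3914 to 4951, had 8226, 7262 and 8791 normalized counts in 5XFAD Trem1+/-, 5900, 8184 and 7318 in 5XFAD, and 4160, 6125 and 3752 in adult wild type. Only the second adult wild-type library reached into the 5XFAD range. The log2 difference was 0.82 ± 0.17 in 5XFAD Trem1+/- (limma adjusted p = 0.018) and 0.63 ± 0.17 in 5XFAD, which did not pass (limma adjusted p = 0.075). The first of these calls was lost without adult wild type replicate 1, without 5XFAD Trem1+/- replicate 1 or without 5XFAD Trem1+/- replicate 3, with adjusted p up to 0.10.

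mt-Nd5, at positions 11742 to 13565, had 33567, 24767 and 33936 normalized counts in 5XFAD Trem1+/-, 28358, 31462 and 33171 in 5XFAD, and 18935, 24209 and 16554 in adult wild type. Neither 5XFAD group overlapped adult wild type, although the lowest 5XFAD Trem1+/- library lay just above the highest adult wild-type library, and the 5XFAD groups overlapped each other. The log2 difference was 0.63 ± 0.14 in 5XFAD Trem1+/- (limma adjusted p = 0.032) and 0.65 ± 0.14 in 5XFAD (limma adjusted p = 0.035). Each of these calls is close to the threshold: the first was lost in 4 and the second in 5 of the 6 fits that leave out 1 library, with adjusted p up to 0.17 and 0.11.

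mt-Nd6 is the only mRNA encoded on the minus strand, at positions 13552 to 14070, and its end overlaps that of mt-Nd5 by 14 bases. It had 5551, 4446 and 5983 normalized counts in 5XFAD Trem1+/-, 4100, 4170 and 4770 in 5XFAD, and 3080, 4490 and 2870 in adult wild type. Its groups overlapped through the second adult wild-type library. The log2 difference was 0.63 ± 0.16 in 5XFAD Trem1+/- (limma adjusted p = 0.038) and 0.35 ± 0.16 in 5XFAD, which did not pass (limma adjusted p = 0.30). The first call was lost in 4 of 6 fits without 1 library, with adjusted p up to 0.21. Counting these, it was lost under 8 of 19 alternatives, among them edgeR on the recovered reads and the fit of only the groups compared. Whether counting used strand is not given in the sources used here, so reads from the opposite strand of a gene cannot be told apart from its own.

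mt-Cytb, the fifth mRNA without a near-identical copy, had 25279, 18907 and 24177 normalized counts in 5XFAD Trem1+/-, 20099, 26794 and 25954 in 5XFAD, and 15037, 21095 and 13584 in adult wild type. The groups overlapped through the second adult wild-type library, and neither difference passed (0.47 ± 0.17, limma adjusted p = 0.20, in 5XFAD Trem1+/- and 0.57 ± 0.17, limma adjusted p = 0.15, in 5XFAD). Of the 8 mRNAs under a nuclear copy, limma called 0 in either comparison. DESeq2 on the recovered reads called mt-Co1 in both (adjusted p = 0.015 in 5XFAD Trem1+/- and 0.029 in 5XFAD) and mt-Nd3 in 5XFAD Trem1+/- (adjusted p = 0.015), and it called mt-Cytb in 5XFAD (adjusted p = 0.020). Limma fits of only the groups compared called mt-Nd3 in 5XFAD Trem1+/- (adjusted p = 0.013) and mt-Co1 in 5XFAD (adjusted p = 0.048). The most different was mt-Nd3, with 394, 547 and 529 normalized counts in 5XFAD Trem1+/-, 415, 135 and 400 in 5XFAD, and 182, 112 and 262 in adult wild type. Its log2 difference in 5XFAD Trem1+/- was 1.47 ± 0.41 (limma adjusted p = 0.071), without overlap of these groups, and it was 0.69 ± 0.41 in 5XFAD (limma adjusted p = 0.46), or 1.21 ± 0.32 without the second 5XFAD library (limma adjusted p = 0.074). Over all 13 mRNAs and both comparisons the adjusted p ran from 2.2e-04 to 0.87.

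Without overlap of the groups, 7 of 13 mRNAs were higher in 5XFAD Trem1+/- and 4 of 13 in 5XFAD than in adult wild type, against 12.9% and 9.32% of all genes tested. The share of reads on mt- mRNAs was 0.895 ± 0.130% in 5XFAD Trem1+/-, 0.892 ± 0.095% in 5XFAD and 0.593 ± 0.118% in adult wild type. The share in adult wild type is lowered by its ribosomal RNA reads. Relative to reads outside the mitochondrial genome, the mRNAs stood at 0.905 ± 0.133%, 0.902 ± 0.097% and 0.609 ± 0.123% in the same groups. Those outside reads still held Gm23935 and CT010467.1, which together took 2.81 to 3.38% of reads on genes in adult wild type. Scaling each library by its reads on nuclear protein-coding genes, an alternative added after the data were seen, left a median mRNA difference of 0.58 in 5XFAD Trem1+/- and 0.56 in 5XFAD. It kept 4 of 6 mt- calls in the first comparison, without mt-Nd5 and mt-Nd6, and 4 calls in the second.

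**Figure D3:**
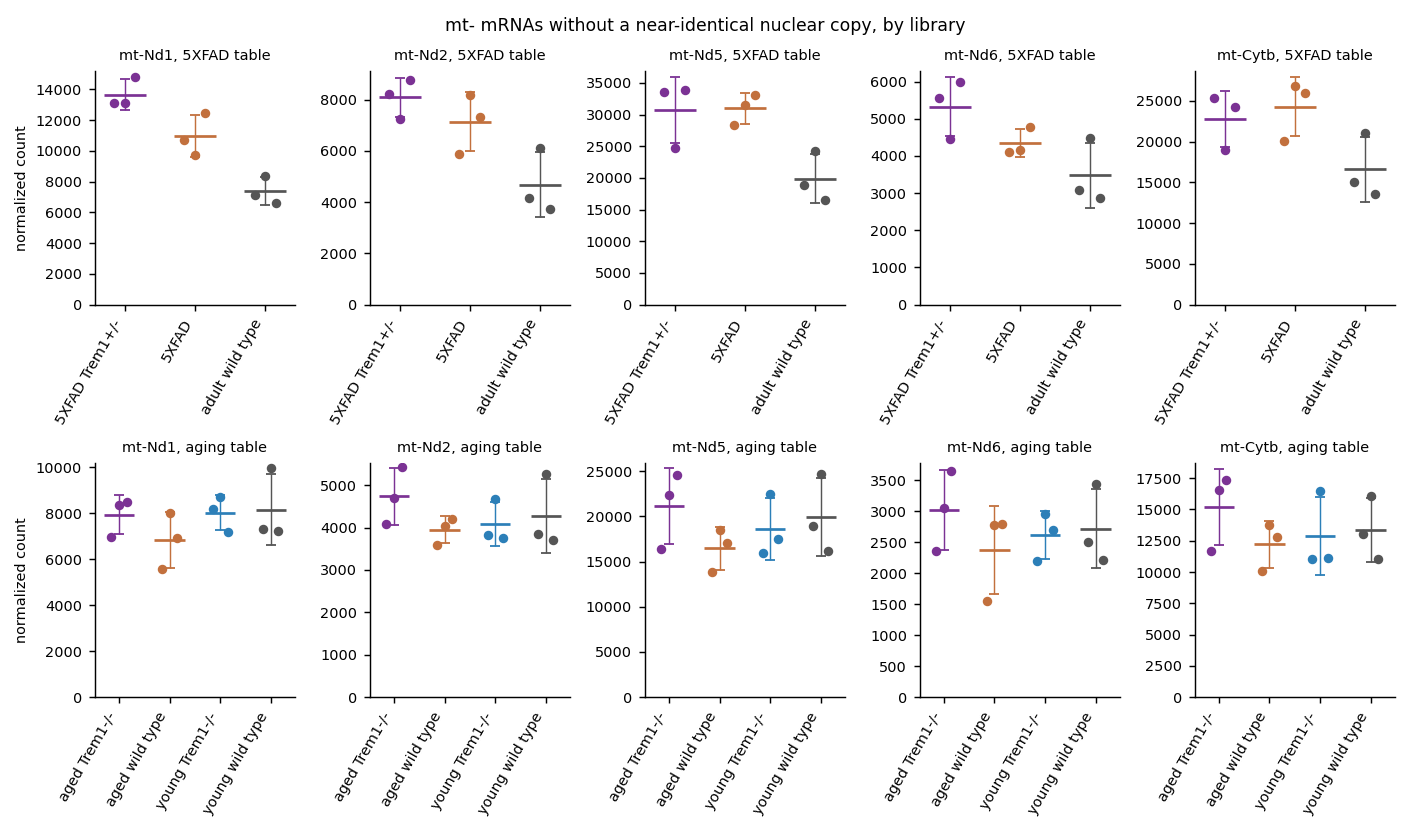
Normalized counts of the 5 mt- mRNAs without a near-identical nuclear copy in the 5XFAD table (top) and the aging table (bottom); points are libraries, long lines group means and bars ± SD (n = 3), on axes that start at 0. In the top row adult wild type has the lowest mean in every panel and mt-Nd1 separates all 3 groups; in the bottom row the groups overlap in every panel.

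The second comparison was between the 5XFAD libraries labelled Trem1+/- and those without this label, in which Trem1 itself had like levels (27.2 ± 10.2 and 27.5 ± 12.2). None of the 19 mt- genes passed in 5XFAD Trem1+/- against 5XFAD with limma, edgeR or DESeq2, and 1 of 19, mt-Nd1, had an unadjusted p under 0.05. Across the table limma called 0 of 17025 genes (0.0%) in this comparison, with 883 at an unadjusted p under 0.05, while edgeR called 0 and DESeq2 16. mt-Nd1 was 0.32 ± 0.12 higher on the log2 scale (95% confidence interval 0.08 to 0.56, limma adjusted p = 0.86), and its groups did not overlap. mt-Co3, a cytochrome c oxidase subunit at 71.1, 59.3 and 53.6 normalized counts in 5XFAD Trem1+/- and 47.4, 33.4 and 43.3 in 5XFAD, was the other member without overlap, against 5.24% of all genes tested that were higher without overlap. mt-Rnr2 differed by 0.16 ± 0.10 (interval -0.04 to 0.35) and mt-Rnr1 by 0.24 ± 0.57 (interval -1.15 to 1.64), both within the spread between libraries. Without the second 5XFAD library, mt-Rnr1 differed by 0.92 ± 0.18 (limma adjusted p = 0.66). 

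**Figure D4:**
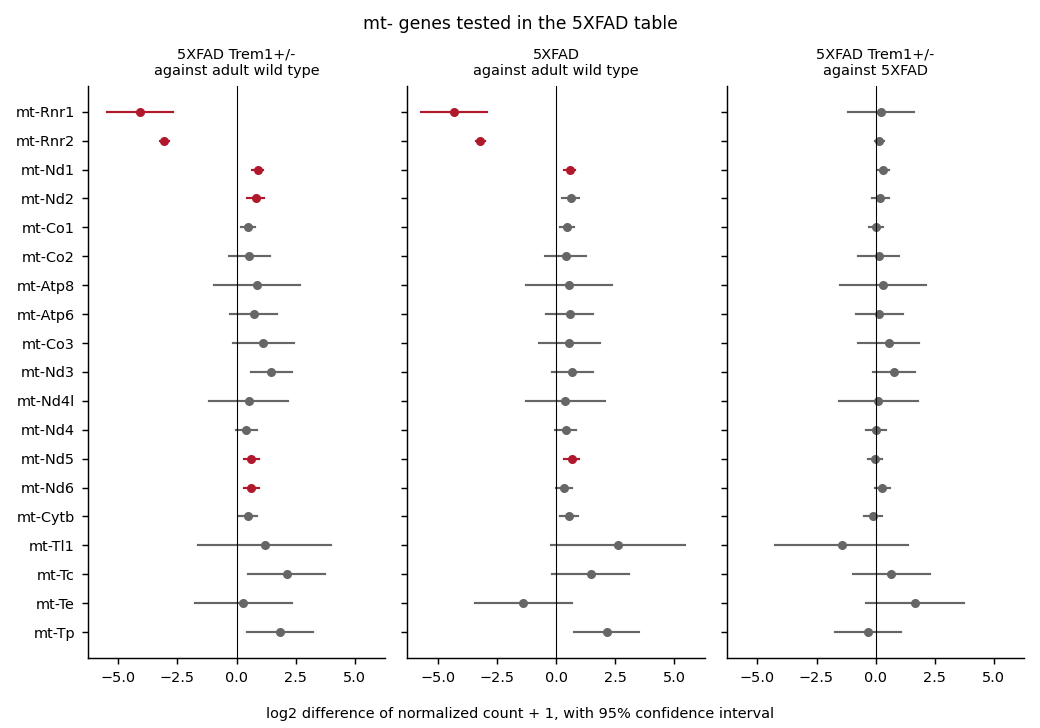
Log2 difference of normalized count + 1 with its 95% confidence interval for the 19 mt- genes tested in the 5XFAD table, ordered as ribosomal RNAs, mRNAs and transfer RNAs; genes with an adjusted p under 0.05 are in red. mt-Rnr1 and mt-Rnr2 lie far below 0 in both comparisons with adult wild type, all 13 mRNAs lie above 0 there, and no gene is red in 5XFAD Trem1+/- against 5XFAD.

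The transfer RNAs, which carry amino acids to the mitochondrial ribosome, were barely covered. Their genes are 59 to 75 bases long, and whether the extraction and library kits kept RNA this short was not tested. Reads on these rows may come from uncut precursors, which cannot be told apart here from the transfer RNAs themselves. Of 22, 4 reached the mean of 10 normalized counts needed for a test in the 5XFAD table and 3 in the aging table. The others had means from 0 to 9.79 and from 0 to 4.51, and 2 and 5 of them had no read in any library. A floor of 3 reads equals 2.26 to 4.36 normalized counts in the 5XFAD table and 2.06 to 4.51 in the aging table. All transfer RNAs together took 0.00191 ± 0.00022% of reads in 5XFAD Trem1+/-, 0.00199 ± 0.00058% in 5XFAD and 0.000655 ± 0.000057% in adult wild type.

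None of the 4 tested transfer RNAs passed in any comparison of the 5XFAD table by limma. mt-Tp had 57.5, 81.6 and 56.5 normalized counts in 5XFAD Trem1+/-, 55.6, 170 and 53.9 in 5XFAD, and 13.2, 12.9 and 30.2 in adult wild type. All 6 5XFAD libraries were above all 3 adult wild-type libraries, with log2 differences of 1.83 ± 0.66 (limma adjusted p = 0.16) and 2.15 ± 0.66 (limma adjusted p = 0.11). DESeq2 on the recovered reads called the second of these (adjusted p = 0.023). mt-Tc, the cysteine transfer RNA, had 62.7, 81.6 and 130 in 5XFAD Trem1+/-, 28.3, 36.3 and 161 in 5XFAD, and 6.60, 45.7 and 22.6 in adult wild type, with log2 differences of 2.12 ± 0.78 (limma adjusted p = 0.17) and 1.47 ± 0.78 (limma adjusted p = 0.39). mt-Tl1 had 5.23, 10.7 and 7.66 in 5XFAD Trem1+/-, 20.1, 8.72 and 60.5 in 5XFAD, and 15.4, 0 and 2.26 in adult wild type, and its groups overlapped. mt-Te, the glutamate transfer RNA, had log2 differences of 0.28 ± 0.98 and -1.39 ± 0.98 in the same comparisons.

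The authors' deposited table for these mice gives adult wild type over 5XFAD, so that a positive value there means higher in adult wild type. In the authors' deposited table mt-Rnr1 had a log2 fold change of 3.98 and mt-Rnr2 of 3.21, both higher in adult wild type, and all 13 mRNAs were below 0. By the same source, the authors' deposited table, 4 mRNAs (mt-Nd1, mt-Nd5, mt-Nd2 and mt-Cytb) and mt-Tp had an adjusted p under 0.05 and were lower in adult wild type. These are the same libraries under another model, not a second measurement.

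Markers of other brain cells differed between the same libraries. The summed level of 6 choroid plexus and ependyma markers was 18313 to 103455 in 5XFAD Trem1+/-, 15011 to 81966 in 5XFAD and 2328 to 6614 in adult wild type, with 0 of 6 passing by limma in either comparison with adult wild type. All 6 were above 0 in both, with medians of 3.17 in 5XFAD Trem1+/- and 2.80 in 5XFAD. The 9 neuron markers summed to 162 to 237 in 5XFAD Trem1+/-, 269 to 644 in 5XFAD and 94.6 to 146 in adult wild type, with 0 of 8 tested passing. The 6 astrocyte markers summed to 4419 to 5177, 4009 to 5986 and 3090 to 4023 in the same order, with Gfap higher in both comparisons and Aldoc higher in 5XFAD by limma. Of 10 monocyte markers tested, 0 passed and 9 were above 0 in each comparison, with medians of 0.93 in 5XFAD Trem1+/- and 0.98 in 5XFAD. The 15 neutrophil markers summed to 22397 to 33121, 21746 to 31231 and 14307 to 57793, and the groups overlapped. The 7 border macrophage markers, with 0 passing, summed to 662 to 1129, 642 to 1993 and 255 to 1042. All 7 were above 0 in both comparisons with adult wild type, with medians of 1.88 in 5XFAD Trem1+/- and 1.24 in 5XFAD. Of the 8 neuron markers tested, 7 and 8 were above 0 in the same comparisons, with medians of 1.16 and 2.12. Of the 15 neutrophil markers 11 were above 0 in each, with medians of 0.35 and 0.31, and of 5 erythrocyte markers 1 was. Of the 10 microglia markers, limma called 2 higher and 0 lower in 5XFAD Trem1+/-, and 1 higher and 2 lower in 5XFAD, against adult wild type. The part of other cells in the mt- differences was not tested.

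In the aging table no mt- gene passed in any comparison, and most differences were within the spread between libraries. With limma, 0 of 18 tested members passed in each of the 5 comparisons between groups and in the genotype by age interaction. edgeR and DESeq2 on the recovered reads also called 0 in each. At an unadjusted p under 0.05 there was 1 member in aged Trem1-/- against young wild type and 0 in the other 5. Of all 16086 genes tested, limma called 0.0% in aged Trem1-/- against aged wild type (1545 at an unadjusted p under 0.05, and 0 by edgeR and 30 by DESeq2), 1.71% against young Trem1-/- and 6.67% against young wild type. It called 8.67% in aged against young wild type, 2.58% in young Trem1-/- against young wild type and 2.54% in the interaction.

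mt-Rnr2 was the member with the unadjusted p under 0.05 and the nearest to a call. It had 16592, 18152 and 21933 normalized counts in the libraries labelled aged Trem1-/-, 18116, 16971 and 16610 in aged wild type, 13851, 20125 and 15730 in those labelled young Trem1-/-, and 13719, 17411 and 12742 in young wild type. The aged ranges overlapped the young ones. The log2 difference was 0.37 ± 0.14 in aged Trem1-/- against young wild type (limma adjusted p = 0.14) and 0.25 ± 0.14 in aged against young wild type (limma adjusted p = 0.33). It passed in the first comparison without the second young wild-type library (limma adjusted p = 0.038).

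mt-Rnr1 had 3184, 3325 and 3723 normalized counts in the libraries labelled aged Trem1-/-, 7907, 1591 and 2856 in aged wild type, 2131, 3071 and 2340 in those labelled young Trem1-/-, and 1978 to 2791 in young wild type. The first aged wild-type library stood apart. mt-Rnr1 did not overlap between aged Trem1-/- and young wild type (0.56 ± 0.50, limma adjusted p = 0.62), and it passed there when the fit held only those 2 groups (limma adjusted p = 0.0063). That library also held 41927 normalized counts of Gm23935, against 6162 and 11208 in the other 2 of its group and 11132 to 17659 in the other 3 groups, and 2482 of CT010467.1, against 547 and 1046. Its mt-Nd3 was the lowest of all libraries at 74.4, against 308 and 297 in its group. Without it, the log2 difference of mt-Rnr1 in aged Trem1-/- against aged wild type was 0.67 ± 0.24 (limma adjusted p = 0.75), against 0.04 ± 0.50 with it, and in aged against young wild type it was -0.12 ± 0.24 against 0.51 ± 0.50. mt-Nd3 in aged against young wild type was 0.62 ± 0.25 without it (limma adjusted p = 0.19), against -0.05 ± 0.38 with it. The count of members called was 0 in each comparison without this library.

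Markers of other cells differed with age and genotype in these libraries. The 15 neutrophil markers summed to 68955 to 159551 normalized counts in the libraries labelled aged Trem1-/-, 82865 to 149757 in aged wild type, 38674 to 77763 in the young libraries with the Trem1-/- label and 17460 to 26209 in young wild type. By limma, 14 of 15 rose in aged wild type against young wild type, 13 in aged Trem1-/- against young wild type, 5 in young Trem1-/- against young wild type, 1 in aged against young Trem1-/- and 0 in aged Trem1-/- against aged wild type. Of 10 monocyte markers tested, 9, 5, 6, 0 and 0 rose in the same comparisons. Of the 10 microglia markers, 8, 9, 1, 3 and 0 fell in them. Their sum was 314080 to 349897 in the libraries labelled aged Trem1-/-, 337606 to 372722 in aged wild type, 419664 to 436207 in the young libraries with the Trem1-/- label and 435301 to 490441 in young wild type. The part of these cells in the mt- values was not tested.

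The mRNAs in the aging table moved little. Their median log2 difference was 0.31 in aged Trem1-/- against aged wild type, 0.18 against young Trem1-/- and 0.18 against young wild type. It was -0.10 in aged against young wild type, -0.01 in young Trem1-/- against young wild type and 0.31 in the interaction, beside medians over all genes between -0.02 and 0.00. mt-Nd1 had 6954 to 8505 normalized counts in the libraries labelled aged Trem1-/-, 5593 to 8038 in aged wild type, 7203 to 8695 in those labelled young Trem1-/- and 7237 to 9965 in young wild type. mt-Nd5 had 16439 to 24552, 13831 to 18430, 15911 to 22453 and 16149 to 24651 in the same order of groups. The 4 ranges of each gene overlapped. Without the first aged wild-type library the median was 0.17 in aged Trem1-/- against aged wild type, 0.06 in aged against young wild type, where its sign turned, and 0.11 in the interaction. Over the 13 mRNAs and the 6 comparisons the smallest adjusted p was 0.26, that of mt-Nd4l in aged Trem1-/- against young wild type (1.71 ± 0.84). Without overlap of the groups, and higher, were mt-Tp in young Trem1-/- against young wild type (11.3% of all genes tested did so), mt-Rnr1, mt-Atp8 and mt-Nd3 in aged against young Trem1-/- (11.3%), and mt-Rnr1, mt-Nd3, mt-Nd4l and mt-Tp in aged Trem1-/- against young wild type (12.9%).

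**Figure D5:**
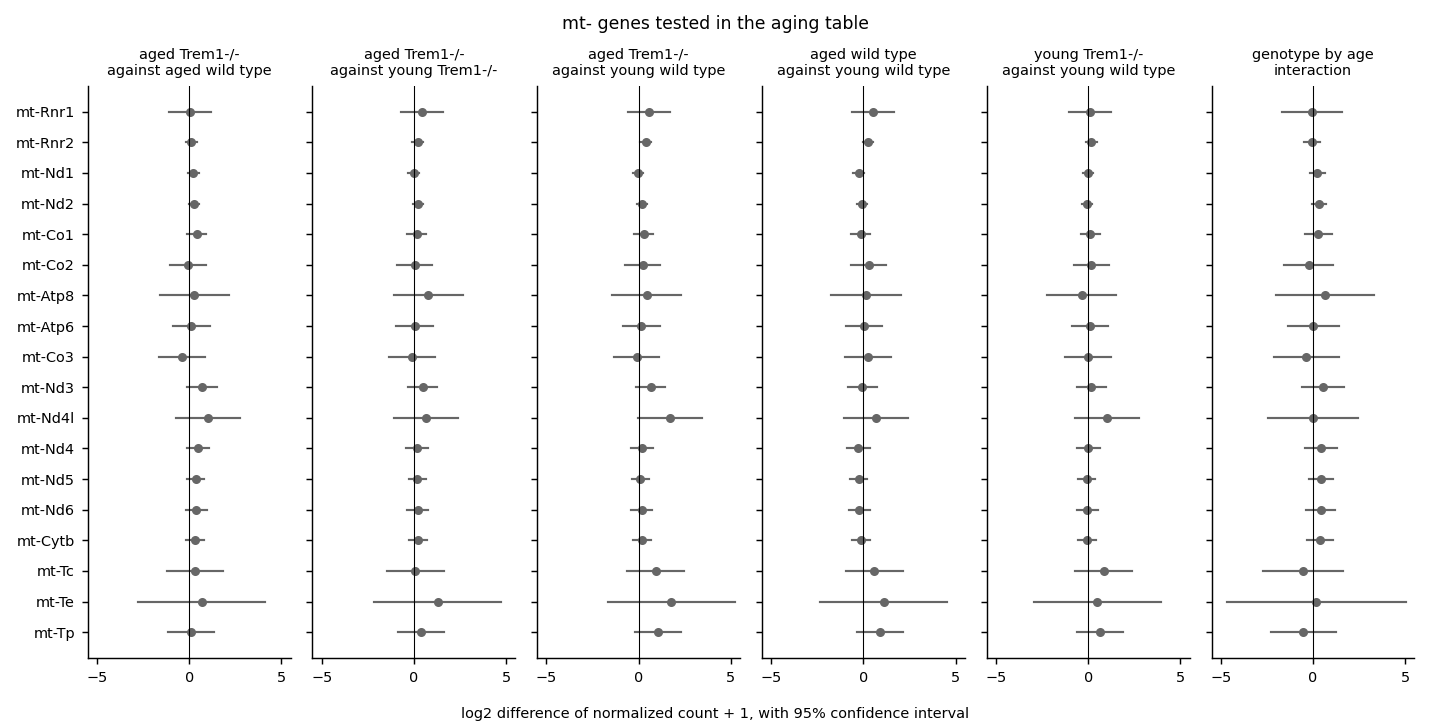
Log2 difference of normalized count + 1 with its 95% confidence interval for the 18 mt- genes tested in the aging table in 6 comparisons; red would mark an adjusted p under 0.05. No gene is red, and the intervals are narrowest for mt-Rnr2, mt-Nd1 and mt-Nd2 and widest for mt-Te and mt-Atp8.

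The share of reads on mt- genes was 0.822 ± 0.154% in the libraries labelled aged Trem1-/-, 0.630 ± 0.076% in aged wild type, 0.679 ± 0.127% in those labelled young Trem1-/- and 0.695 ± 0.143% in young wild type. The ribosomal RNAs took 0.173 ± 0.024%, 0.154 ± 0.025%, 0.139 ± 0.027% and 0.128 ± 0.023% in the same order. The Wilson 95% interval of a library's share of reads on mt- genes was at most 0.0194 percentage points wide, counting error only, so the spread between libraries sets the precision. The 5XFAD and aging tables were normalized apart, so their levels are set side by side and not tested. With that limit, the ribosomal RNA share of the 6 5XFAD libraries (0.177 to 0.274%) was near that of the 12 aging libraries (0.110 to 0.198%), and adult wild type, at 1.99 to 2.32%, was the group that stood apart from all others.

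The make-up of the mt- mRNA reads was as follows. mt-Co1 took 24.6 to 28.4% of them in the 5XFAD table and 25.8 to 29.5% in the aging table. mt-Nd5 took a median of 25.0% and 25.2%, and mt-Cytb a median of 19.4% and 18.2%, in the same order of tables. mt-Nd1 took 8.14 to 12.5% and 8.89 to 12.7%, and mt-Nd3 0.110 to 0.521% and 0.142 to 0.427%. mt-Nd6, the minus-strand mRNA, was 0.611 ± 0.026 of mt-Nd5 per base in 5XFAD Trem1+/-, 0.493 ± 0.024 in 5XFAD and 0.611 ± 0.040 in adult wild type (SD, n = 3 each), and 5XFAD overlapped neither of the others. In the aging table this ratio was 0.504 ± 0.021 in the libraries labelled aged Trem1-/-, 0.501 ± 0.094 in aged wild type, 0.498 ± 0.041 in young libraries with the Trem1-/- label and 0.479 ± 0.013 in young wild type. mt-Nd1 was 0.861 ± 0.135 of mt-Nd5 per base in 5XFAD Trem1+/-, 0.675 ± 0.074 in 5XFAD and 0.714 ± 0.051 in adult wild type. These ratios are descriptions with no test.

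Nuclear genes that make and handle mitochondrial RNA were looked at in 4 lists. Of all genes tested, 2.78% passed in 5XFAD Trem1+/- and 1.98% in 5XFAD against adult wild type. With lists of 8 to 32 genes, the counts below cannot be told apart from these shares. Of 16 genes of mitochondrial DNA transcription and maintenance, such as the RNA polymerase Polrmt and the packaging factor Tfam, 0 of 16 tested passed by limma in either 5XFAD group against adult wild type, with median log2 differences of -0.11 in 5XFAD Trem1+/- and -0.04 in 5XFAD. Of 18 genes of mitochondrial RNA processing and decay, such as Lrpprc, which stabilises mitochondrial mRNAs, 0 passed, with medians of 0.11 and -0.07. Of 8 regulators of mitochondrial biogenesis, 0 passed, with medians of -0.02 and 0.13. Of 32 genes of transfer RNA modification and aminoacylation, 1 passed, in 5XFAD Trem1+/- against adult wild type: Lars2, the mitochondrial leucyl-tRNA synthetase, was lower (-0.95 ± 0.24, limma adjusted p = 0.043). Lars2 had 316 to 450 normalized counts in 5XFAD Trem1+/-, 319 to 520 in 5XFAD and 551 to 871 in adult wild type. Adult wild type was also the group with the most ribosomal RNA reads, and the part of library make-up in the Lars2 difference was not tested. In 5XFAD Trem1+/- against 5XFAD and in the 6 comparisons of the aging table, limma called 0 genes of these 4 lists. The median of the transcription and maintenance list was -0.24 in aged against young wild type and -0.30 in aged Trem1-/- against young wild type. It was -0.19 in young Trem1-/- against young wild type, and 2 of 15 tested genes were above 0 in each. All of these comparisons share the young wild-type libraries. Without them, the median was -0.12 in aged against young Trem1-/- (3 of 15 above 0). In aged Trem1-/- against aged wild type it was -0.04 (7 of 15 above 0).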

How the data were processed

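RNA of primary microglia was extracted with a Qiagen RNeasy kit and libraries were made with a NEBNext Ultra kit, per the labels' protocols. The submitters' processing notes name fastp, HISAT2 2.0.5, featureCounts 1.5.0-p3, DESeq2 1.20.0 and GRCm38; strandedness and the treatment of reads with several matches are not given in the sources used here. The deposited per-library values are a normalized signal per gene. Dividing each by what 1 read is worth gave whole reads within 0.05 for at least 99.9956% of values. The authors' deposited tables also give log2 fold changes, their errors and adjusted p-values. Genes with a mean of at least 10 were tested with limma 3.58.1 (trend, robust; R 4.3.3) on log2(value + 1), all groups of a table in 1 fit, with Benjamini-Hochberg adjustment over the table and a threshold of 0.05. An exact permutation test of 3 against 3 libraries cannot go below p = 0.1 and was not used. edgeR 4.0.16 and DESeq2 1.42.0 on the recovered reads were alternatives. Nuclear copies were found with blastn 2.17.0 and shared 50-base windows in GENCODE M21 transcripts. Replicates of each group differed beyond sampling noise (chi-square over its degrees of freedom 11.9 to 41.7). That spread does not show whether they are separate mice. Each library was counted once. The test was checked on simulated data, but the outcome is not given here and adds no support to the calls. Members and gene lists were chosen with earlier results of these data known: all mt- rows are counted, values are given for those the text turns on, and from each gene list at most 4 members with the smallest adjusted p may be named.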

Additional observations from a re-analysis of the deposited data

How the results depend on the processing

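The counts of mt- genes called were the same, within 1.5 times, under most alternatives (other pseudocounts, filters, scalings, edgeR, DESeq2, the replicate block and fits with each library left out). In 5XFAD Trem1+/- against adult wild type the count was 6, against 1 with limma without trend and robust and 2 to 7 with each library left out. In 5XFAD against adult wild type it was 4, against 2 with limma without trend and robust, 8 with DESeq2 on the recovered reads and 1 to 6 with each library left out. In aged Trem1-/- against young wild type it was 0, against 1 in a fit of only those groups and 0 to 1 with each library left out. With limma without trend and robust, no mRNA kept its call in either comparison of a 5XFAD group with adult wild type. No called member changed sign under any alternative run. mt-Rnr2 kept its call in both comparisons under all 19; mt-Rnr1 lost it under 7 of 19 in each, mt-Nd5 under 10 in 5XFAD Trem1+/- and 8 in 5XFAD. The median log2 difference of the mRNAs ran from 0.54 to 0.78 in 5XFAD Trem1+/- and from 0.43 to 0.62 in 5XFAD against adult wild type. In the aging table it ran from -0.25 to 0.06 in aged against young wild type and from -0.11 to 0.14 in young Trem1-/- against young wild type, and stayed above 0 in the other 4. Over all genes the call counts moved more: in 5XFAD Trem1+/- against adult wild type 473, against 27 with limma without trend and robust, 1061 with DESeq2, 952 with no filter and 848 with the replicate block, and in 5XFAD against adult wild type 337, against 32, 778, 795 and 628 under the same settings and 213 with edgeR. In the aging table limma without trend and robust called 581 instead of 1394 genes in aged against young wild type.

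Equal replicate numbers in different groups were checked for pairing. The median correlation of the residuals was 0.0116 over 9 pairs in the 5XFAD table (-0.0328 to 0.203) and 0.0119 over 18 pairs in the aging table (-0.136 to 0.0988), so the numbers were not taken to pair the samples. With a replicate block the counts of mt- genes called were 6 in 5XFAD Trem1+/- and 4 in 5XFAD against adult wild type and 0 in the other comparisons, as without it, although mt-Nd5 lost its call. Low read counts limit the transfer RNAs, most of which lie near the floor of 3 reads. They also limit mt-Atp8, with 9 to 35 reads per library in the 5XFAD table and 7 to 20 in the aging table.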
